A study of Mus musculus with 13 samples.

Results

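Shell-like neurons of the mouse claustrum that carried a retrograde label from the lateral entorhinal cortex (LEC) were studied. They were compared with shell-like neurons of the same mice whose deposited label is Unlabeled. Of 773 excitatory cells kept from the 3 projection mice, 258 entered this comparison, 183 LEC-labelled and 75 Unlabeled, out of 1112 cells harvested in the series. Cells had to hold Snap25 and Slc17a7, each with 1 count or more, and were called shell-like where Synpr lay under 200 CPM (counts scaled to a fixed total per cell, spike-ins left out) and Slc30a3 reached 20 CPM or more. Cells at or above the Synpr limit are called core-like here. The rule thus used Synpr and Slc30a3, and both were left out of every test.

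The series holds cells picked by hand from the microdissected claustrum of 4 mature male C57BL/6 mice. In the 3 projection mice, green retrobeads (fluorescent microspheres taken up by axon terminals and carried back to the cell body) had been injected into the LEC and red retrobeads into the retrosplenial cortex (RSC). All cells compared therefore came from animals injected with both tracers, and Unlabeled cells are those given neither projection in the deposited labels. The paper counts its kept cells as blindly selected, LEC-projecting or RSC-projecting, so Unlabeled cells fall under its blindly selected ones. Whether they were checked to be free of beads is not stated. A lack of beads is not a lack of a projection, since a tracer deposit reaches only a portion of the target's axon terminals. The fourth mouse had rAAV2-retro-CAG-GFP in the anterior cingulate cortex, its cells were picked without regard to label, and it served only for levels set side by side.

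The claustrum is a sheet of mostly excitatory neurons below the insular cortex that exchanges connections with much of the cortex. Its core is known for Synpr, which encodes the vesicle protein synaptoporin, and its shell for Slc30a3, which encodes the transporter that loads zinc into glutamatergic vesicles. The comparison asks whether shell-like cells differ by this projection once the class itself is held fixed.

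Per mouse, 41, 53 and 89 LEC cells and 18, 28 and 29 Unlabeled cells qualified in projection mice 1, 2 and 3. LEC and Unlabeled cells of a mouse were processed on different plates, and no plate held both, so the label and the plate cannot be told apart in any result below. The median total per cell was 151424 to 154768 counts over the 3 mice in LEC cells and 111061 to 172946 in Unlabeled cells (exact permutation test of the per-mouse medians, two-sided, p = 1). The median number of genes detected was 5113 to 5396 in LEC cells and 5616.5 to 5855 in Unlabeled cells, which did not overlap (exact permutation p = 0.1, the smallest that 3 against 3 can give). After each cell was thinned to 20000 counts, which left out 2 LEC cells, the medians were 3665 to 3743 and 3926 to 4007.5 genes (exact permutation p = 0.1). Spike-in RNA took a median of 8.74 to 9.89% of the reads of LEC cells and 7.09 to 7.997% of those of Unlabeled cells (exact permutation p = 0.1). LEC shell-like cells thus held fewer detected genes and a larger spike-in share in each mouse, and in core-like cells of the same plates the labels overlapped in both measures (exact permutation p = 0.8 and 0.5). The part of these differences in the values below was not tested.

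The share of kept cells that met the rule was 64.0% of LEC cells (183 of 286; exact 95% interval 58.1 to 69.6%), 31.2% of Unlabeled cells (75 of 240; 25.4 to 37.5%) and 8.91% of RSC cells (22 of 247; 5.67 to 13.2%). The interval covers counting error only, and the shares follow from how cells were picked. By mouse the share was 51.2, 69.7 and 68.5% in LEC cells and 22.5, 37.8 and 33.7% in Unlabeled cells. Slc30a3, which chose the cells, stood at 356, 412 and 318 CPM in the LEC sums and 334, 473 and 409.6 CPM in the Unlabeled sums. The member with the least Slc30a3 had 24.0 CPM and the excluded cell nearest to that limit 19.7 CPM. The member with the most Synpr had 180.2 CPM, and the nearest excluded cell with Slc30a3 had 209 CPM. Only 12 members lay under 50 CPM of Slc30a3, and 12 had 50 CPM or more of Synpr, 6 with each label.

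**Figure D1:**
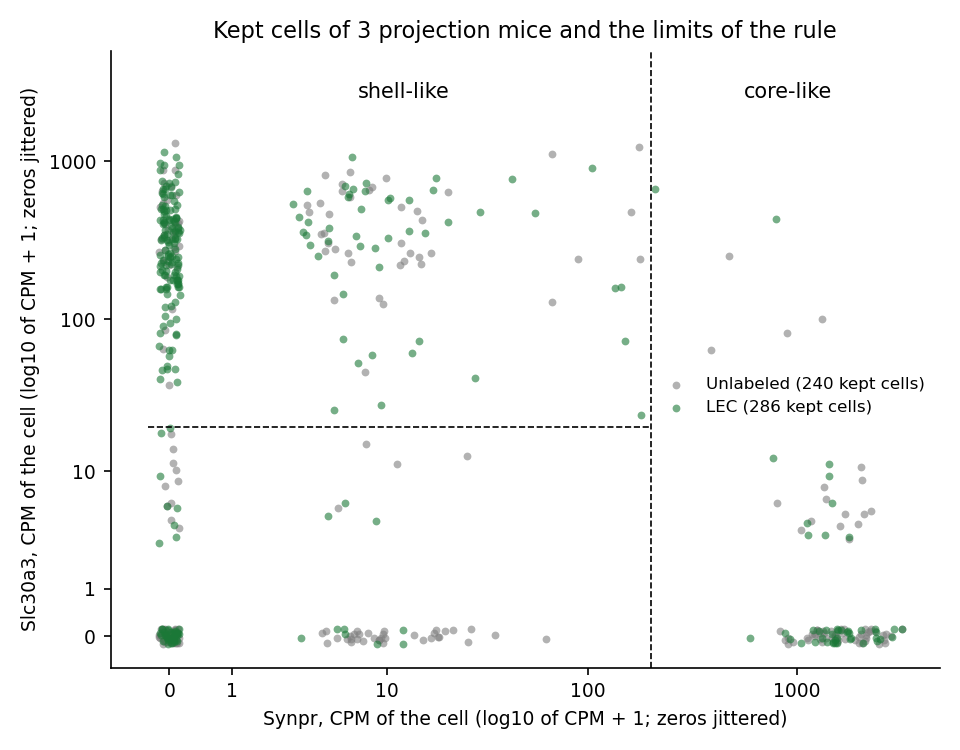
Synpr (horizontal axis) against Slc30a3 (vertical axis) in the 286 LEC (green) and 240 Unlabeled (grey) kept cells of 3 mice, each point a cell, both in CPM on a log10(CPM + 1) scale, with zeros spread by a small jitter. Dashed lines mark 200 CPM of Synpr and 20 CPM of Slc30a3; the 258 shell-like cells fill the upper left, and few cells of either label lie near a limit.

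Counts were summed per mouse and label, and the 3 LEC sums were compared with the 3 Unlabeled sums. Of 11514 genes tested, edgeR called 0 at an adjusted p under 0.05. An unadjusted p under 0.05 was reached by 646 genes (5.61% of those tested), 354 higher and 292 lower in LEC cells, and DESeq2 called 35 genes (0.304%). The values below describe these sums, and no gene named from this comparison passed the edgeR test. The sums of 1 label also differed between plates, which held different cells, and the part due to the choice of cells was not tested. In mouse 3, whose LEC cells came from plates 7 and 12, the median absolute log2 ratio over 8528 genes was 0.35 between these plates and 0.34 between LEC and Unlabeled.

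The core markers stood lower in LEC cells. All 7 that could be tested had a log2 fold change under 0, with a median of -1.02 against 0.00 over all genes tested, and the median stayed between -1.36 and -0.90 in 20 alternative analyses. For 4 of the 7, Gnb4, Nr4a2, Rgs12 and Gfra1, every LEC sum was below every Unlabeled sum, which 5.46% of all genes showed. These genes mark the core in part from earlier analyses of the same cells, so that their direction is not independent evidence. The paper counts Gnb4 and Lxn among classical markers of the claustrum as a whole. It found Gnb4 enriched in both its core and shell clusters over its cortical cluster.

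Gnb4, for a beta subunit of heterotrimeric G proteins, measured 105, 166 and 128 CPM in the LEC sums of mice 1, 2 and 3 and 258, 284 and 193 CPM in the Unlabeled sums. The groups did not overlap, and the gap was widest in mouse 1. The log2 fold change was -0.88 ± 0.22 (SE, 3 sums a side; 95% interval -1.36 to -0.39; edgeR adjusted p = 0.682), and -0.46 when each cell was thinned to 20000 counts. Core-like cells of the same mice held a mean of 1292 ± 213 CPM with the LEC label and 1230.0 ± 35.0 CPM without (SD, n = 3 mice). Shell-like Unlabeled cells thus held 19.6% of the core-like level and shell-like LEC cells 10.2%.

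Rgs12 encodes a regulator that speeds GTP hydrolysis by G protein alpha subunits. It measured 39.3, 86.8 and 70.5 CPM in LEC sums and 152, 246 and 254 CPM in Unlabeled sums, and each LEC sum was below each Unlabeled sum. The log2 fold change was -1.73 ± 0.31 (SE; 95% interval -2.42 to -1.04; edgeR adjusted p = 0.422). At 20000 counts per cell, Rgs12 was seen in 17.9, 30.2 and 25.8% of LEC cells and in 44.4, 67.9 and 75.9% of Unlabeled cells, so the gap was also one of the number of cells with a count. Without thinning the shares were 48.8, 52.8 and 41.6% against 77.8, 96.4 and 93.1%. In mouse 1, 1 cell gave 53.8% of the Rgs12 counts of the LEC sum and 1 cell 36.0% of those of the Unlabeled sum.

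Nr4a2, an orphan nuclear receptor long used to mark the claustrum, measured 75.0, 145 and 205 CPM in LEC sums and 216, 264 and 384 CPM in Unlabeled sums. The highest LEC sum and the lowest Unlabeled sum came close without overlap (log2 fold change -1.02 ± 0.34, SE; adjusted p = 0.736). Gfra1, the co-receptor for GDNF, was near the floor in LEC sums at 0.469, 0.341 and 3.06 CPM, with a count in 11 of 183 cells, and stood at 18.8, 9.997 and 8.89 CPM in Unlabeled sums, with a count in 15 of 75 cells. Its log2 fold change was -3.21 ± 0.98 (SE; adjusted p = 0.705), a value that rests on 50 LEC and 134 Unlabeled counts and was -5.08 without mouse 3. Gfra1 in Unlabeled shell-like cells was still 5.51% of the core-like level.

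Lxn, which encodes the carboxypeptidase inhibitor latexin, measured 70.3, 183 and 174 CPM in LEC sums and 112, 557 and 360.0 CPM in Unlabeled sums. It was lower with the label in each mouse, but the groups overlapped, and both sums of mouse 1 were the lowest of their label (log2 fold change -1.27 ± 0.51, SE; adjusted p = 0.820; -0.73 without plate 9, which held the Unlabeled cells of mouse 2). The copine genes Cpne4 and Cpne9, for calcium-dependent membrane-binding proteins, were scarce in both groups and their intervals spanned 0. For Cpne4 the log2 fold change was -0.41 (95% interval -1.68 to 0.87) and for Cpne9 it was -0.92 (-3.12 to 1.28). Slc17a6, the vesicular glutamate transporter VGLUT2, was too rare to test, with 1 count in 183 LEC cells and 10 counts in 75 Unlabeled cells. Synpr, used by the rule, stood at 8.14, 2.73 and 6.67 CPM in LEC sums and 14.96, 17.4 and 9.09 CPM in Unlabeled sums. These sums did not overlap, and a count was seen in 49 of 183 LEC cells and 40 of 75 Unlabeled cells. In mice 1, 2 and 3, 1 cell gave 44.2, 41.7 and 25% of the Synpr counts of the LEC sums. For the Unlabeled sums, 1 cell gave 45.2, 51.7 and 51.1%. With thinned cells, Synpr was seen in 10.3, 1.89 and 6.74% of LEC cells. The thinned shares of Unlabeled cells were 11.1, 10.7 and 3.45%, which overlapped and were the lower in mouse 3. Synpr chose the cells, so its values are a description and cannot test a difference between the groups.

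Restricting the cells to under 50 CPM of Synpr, which drops 6 cells of each label, left the median of the core markers at -0.90, and asking for at least 50 CPM of Slc30a3 moved it to -1.34. Both limits use the genes that chose the cells, so these values are a description.

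**Figure D2:**
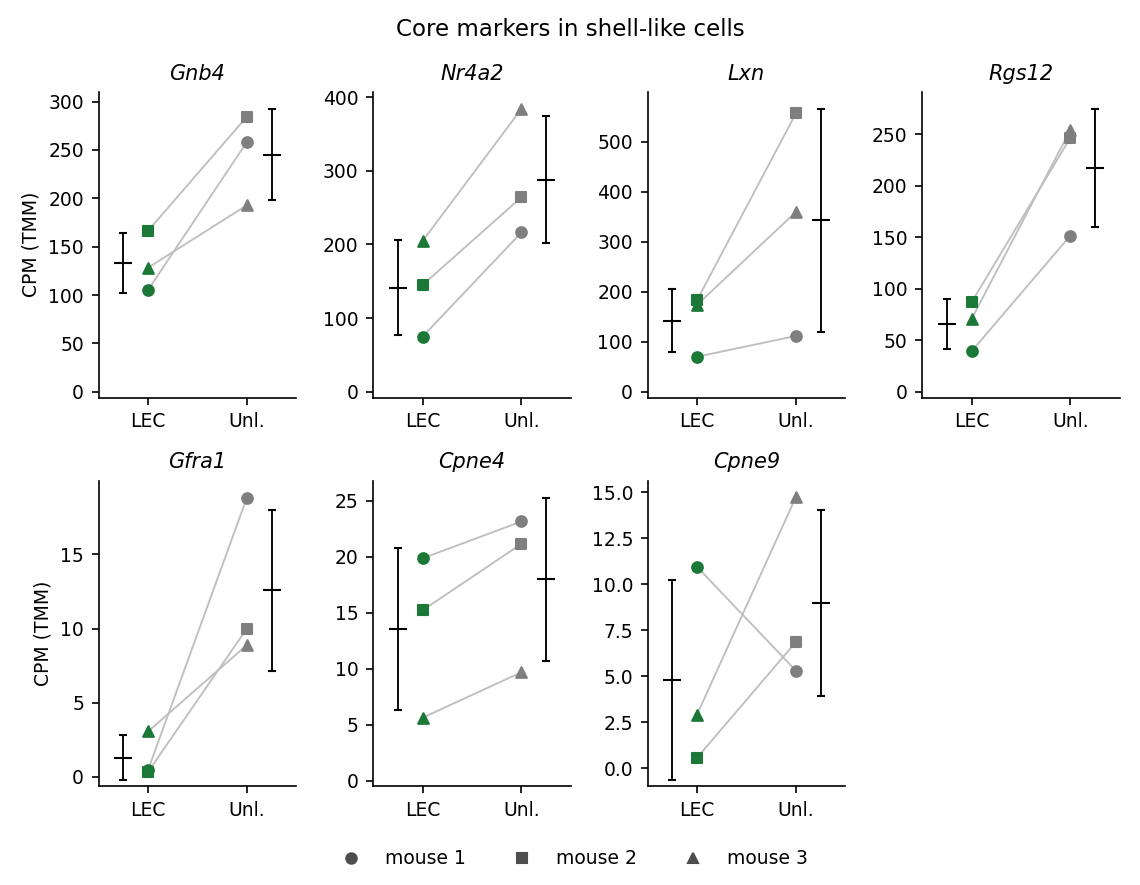
TMM-scaled CPM (vertical axes, 1 panel per gene) of the 7 tested core markers in shell-like LEC (green) and Unlabeled (grey) sums, with a symbol for each of 3 mice, lines joining the sums of a mouse, and bars for the mean ± SD. For Gnb4, Nr4a2, Rgs12 and Gfra1 the 3 LEC sums lie below the 3 Unlabeled sums, whereas Lxn, Cpne4 and Cpne9 overlap.

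The shell markers did not move as 1 group. Of 10 tested besides Slc30a3, 7 had a log2 fold change above 0 and 3 below, with a median of 0.18. The LEC sums were all above the Unlabeled sums for Spon1 and Col6a1, a pattern of 6.14% of all genes, and all below for Ntm.

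Nnat encodes neuronatin, a small membrane protein of the endoplasmic reticulum. It measured 815, 1087 and 1572 CPM in LEC sums and 539, 828 and 742 CPM in Unlabeled sums. LEC was higher in each mouse, but the groups overlapped between the LEC sum of mouse 1 and the Unlabeled sum of mouse 2. The log2 fold change was 0.72 ± 0.23 (SE; 95% interval 0.20 to 1.24; edgeR adjusted p = 0.72). Every LEC cell that could be thinned had a count of Nnat, against 77.8, 100 and 96.6% of Unlabeled cells.

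Spon1, for the secreted adhesion protein F-spondin, measured 295, 334 and 324 CPM in LEC sums and 155, 266 and 223 CPM in Unlabeled sums. The 3 LEC sums lay close together above the Unlabeled ones (log2 fold change 0.56 ± 0.19, SE; 95% interval 0.13 to 0.99; adjusted p = 0.762). Col6a1, a collagen VI chain, measured 344, 394 and 353 CPM against 286, 324 and 296 CPM. Its groups also stood apart, by a smaller margin (0.27 ± 0.13, SE; 95% interval -0.02 to 0.56; adjusted p = 0.915).

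Ntm, for the adhesion molecule neurotrimin, went the other way with 243, 189 and 338 CPM in LEC sums and 431, 385 and 437 CPM in Unlabeled sums. Both groups kept apart (log2 fold change -0.70 ± 0.20, SE; 95% interval -1.15 to -0.25; adjusted p = 0.682). Nrn1, for the surface protein neuritin, and Mpped1 had log2 fold changes of -0.47 (95% interval -1.04 to 0.11) and -0.19 (-0.55 to 0.17). Syn2 (synapsin II) and Ldb2, a partner of LIM domain proteins, differed by 0.09 (-0.31 to 0.49) and 0.05 (-0.33 to 0.43), and their sign turned when mouse 3 was left out. Cdh9 and Ptprz1 had values of 0.40 (-0.36 to 1.17) and 0.82 (-1.24 to 2.88).

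**Figure D3:**
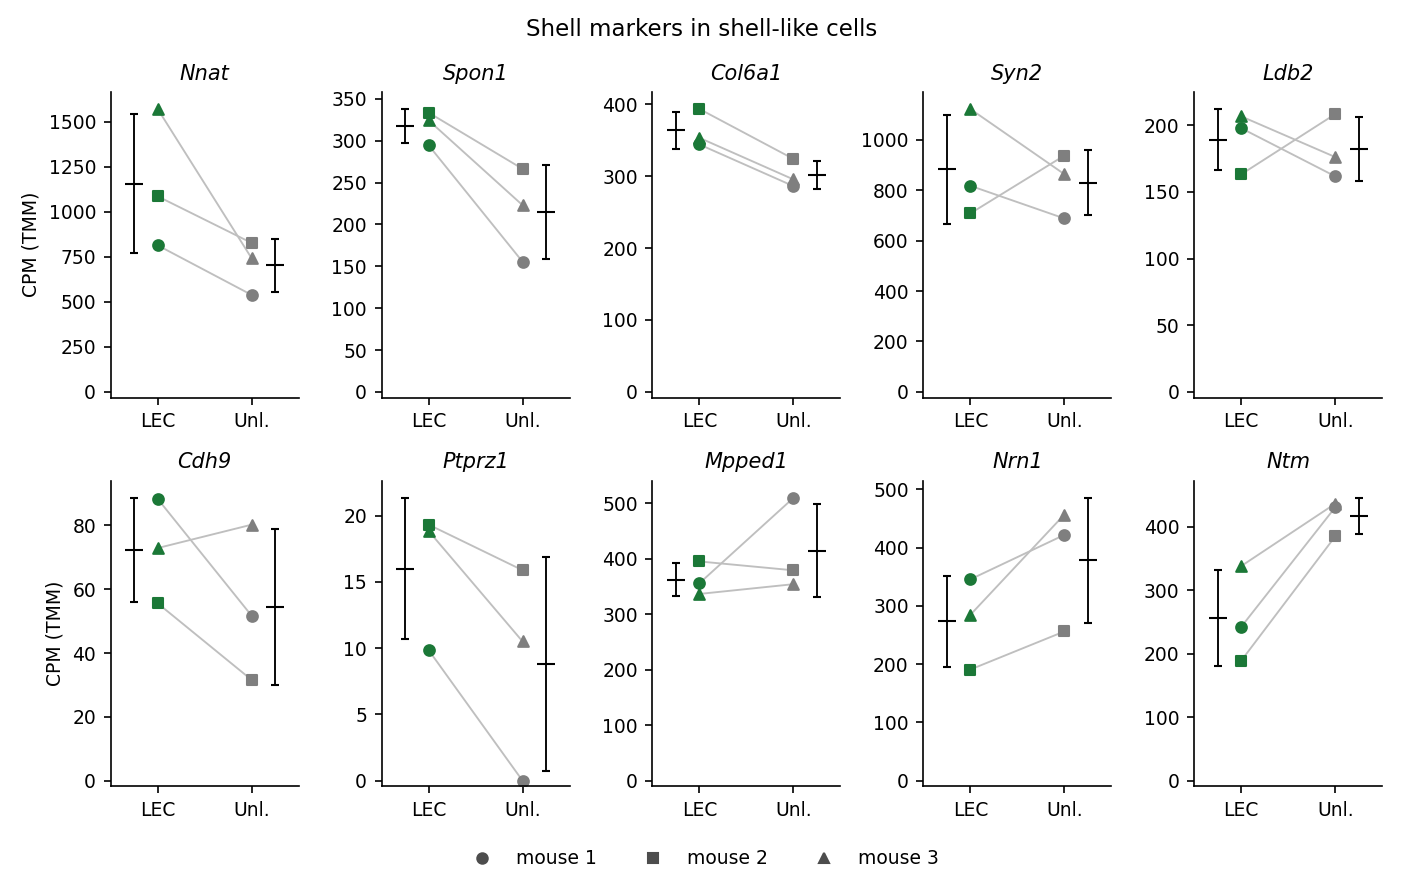
TMM-scaled CPM (vertical axes, 1 panel per gene) of the 10 tested shell markers in shell-like LEC (green) and Unlabeled (grey) sums of 3 mice, with lines joining the sums of a mouse and bars for the mean ± SD. LEC sums lie above all Unlabeled sums for Spon1 and Col6a1 and below them for Ntm.

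Layer 6 markers were mostly near 0 in both groups, with Pcp4 as the main exception. Of 13, only 5 passed the filter on low counts, 2 with a log2 fold change above 0 and 3 below. Those below were scarce. Pitpnc1 measured 1.095, 0.455 and 0.139 CPM in LEC sums and 3.38, 3.14 and 3.03 CPM in Unlabeled sums. All its LEC sums were lower (log2 fold change -2.52, 95% interval -4.88 to -0.15), which 5.46% of all genes showed. The value rests on 13 LEC and 38 Unlabeled counts. Tle4 was lower in each mouse, with overlap (-0.64, -2.07 to 0.79), and Cplx3 had -0.44 (-3.84 to 2.96). Fezf2, a transcription factor of subcerebral projection neurons, measured 33.8, 25.6 and 24.1 CPM in LEC sums and 7.72, 7.84 and 13.9 CPM in Unlabeled sums. All LEC sums were higher (log2 fold change 1.49 ± 0.42, SE; 95% interval 0.54 to 2.43; edgeR adjusted p = 0.682), which 6.14% of all genes showed. Fezf2 was at 0 in all core-like sums of both labels. Pcp4, a calmodulin regulator that is abundant in deep cortical layers, measured 507, 403 and 338 CPM against 556, 272 and 193 CPM, which overlapped (0.30, 95% interval -0.44 to 1.04). It had a count in 172 of 183 LEC cells and 70 of 75 Unlabeled cells. Core-like cells held means of only 11.8 ± 10.1 CPM of Pcp4 with the LEC label and 16.8 ± 1.47 CPM without (SD, n = 3 mice). The paper describes its Nnat-expressing shell cluster as depleted in Pcp4, in a comparison with published data that was not repeated here.

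Rprm was seen in 0 of 183 LEC cells, which allows a share of up to 1.64% of cells with a count, and in 18 of 75 Unlabeled cells. Of its 120 Unlabeled counts, 79.2% came from 1 cell of mouse 1, so the sums of 49.2, 1.18 and 2.42 CPM were uneven. In core-like cells Rprm was also at 0 in all LEC sums, against 2.61, 0.887 and 0.369 CPM in Unlabeled sums. Its absence with the LEC label was thus not particular to shell-like cells. Shell-like cells with 20 CPM or more over 6 layer 6 genes numbered 6 with the LEC label and 4 without, and the core marker median was -1.03 when they were left out.

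The 10 genes with the lowest p on each side are given as the rule for named genes asks, although none passed. Mgp, which encodes matrix Gla protein, an inhibitor of calcification, had the lowest p of all and lay lower in LEC cells. It measured 12.7, 13.9 and 19.6 CPM in LEC sums and 76.7, 68.4 and 67.1 CPM in Unlabeled sums, with no overlap. The log2 fold change was -2.19 ± 0.28 (SE; 95% interval -2.83 to -1.56; edgeR adjusted p = 0.219). Mgp had a count in 36 of 183 LEC cells and 30 of 75 Unlabeled cells, and the top cell gave 18.8% and 31.9% of the counts. In mouse 2, 1 Unlabeled cell gave 76.8% of the Mgp counts of its sum, and a count was seen in nearly equal shares of LEC and Unlabeled cells (22.6 and 25.0%). It also differed between LEC plates of mouse 3, with 10.5 CPM on plate 7 and 34.1 CPM on plate 12.

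Hapln4, for a link protein that ties hyaluronan to proteoglycans in perineuronal nets, measured 19.1, 30.2 and 19.3 CPM in LEC sums and 66.6, 72.3 and 71.9 CPM in Unlabeled sums. Cacnb4, for an auxiliary subunit of voltage-gated calcium channels, measured 160.1, 153 and 137 CPM against 258, 275 and 257 CPM. In both genes the groups stood well apart and the sums within a label were close. Their log2 fold changes were -1.62 ± 0.28 and -0.81 ± 0.14 (SE), with an edgeR adjusted p of 0.422 each.

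Odz2 (teneurin 2, a synaptic adhesion molecule now named Tenm2) measured 135, 115 and 107 CPM in LEC sums and 246, 169 and 271 CPM in Unlabeled sums, with no overlap (log2 fold change -0.94 ± 0.21, SE; adjusted p = 0.623). S100b, a calcium-binding protein best known from astrocytes, measured 1.56, 7.50 and 5.35 CPM against 61.3, 18.2 and 38.2 CPM (-3.00 ± 0.64, SE; adjusted p = 0.623). Mboat2, a lysophospholipid acyltransferase, measured 13.9, 20.9 and 20.6 CPM against 48.3, 55.5 and 44.0 CPM (-1.41 ± 0.30, SE; adjusted p = 0.623). All 3 kept every LEC sum below every Unlabeled sum, although 1 cell gave 66.7% of the S100b counts of the Unlabeled sum of mouse 2, and Odz2 was -0.49 when cells were restricted to under 50 CPM of Synpr. Gm15688 and BC028528 had no count in LEC cells and 54 and 39 in Unlabeled cells, 43.9 and 31.7-fold lower with the LEC floor set at 3 counts over the group. Klhl13 had 1 count against 63, a ratio of 154 (exact 95% counting interval 26.6 to 6165). These counts lay in 4, 5 and 7 Unlabeled cells, so a few cells carry them. The ratios and the interval treat each count as a separate draw, so they give no lower bound for the choice of cells.

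Among these genes higher in LEC cells, 4 had a count in at least 108 of 183 LEC cells and at least 34 of 75 Unlabeled cells. Ifi27l1, of an interferon-inducible family, measured 84.2, 109 and 130 CPM in LEC sums and 37.2, 42.9 and 43.2 CPM in Unlabeled sums (log2 fold change 1.38 ± 0.23, SE; adjusted p = 0.422). Galnt9, an enzyme that starts O-glycosylation, measured 144, 144 and 122.6 CPM against 72.4, 71.9 and 61.6 CPM (0.999 ± 0.19, SE; adjusted p = 0.422). In both genes the lowest LEC sum was well above the highest Unlabeled sum, and 1 cell gave 50.6% of the Ifi27l1 counts of the Unlabeled sum of mouse 1.

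Srm (spermidine synthase) measured 160.2, 129 and 109 CPM in LEC sums and 65.2, 62.7 and 55.1 CPM in Unlabeled sums (1.12 ± 0.21, SE), and at 20000 counts per cell it was seen in 64.0 to 76.9% of LEC cells and 27.8 to 44.8% of Unlabeled cells. Without thinning the shares were 84.3 to 87.8% and 67.9 to 77.8%. Atg3, an enzyme that attaches LC3 to lipid in autophagy, measured 163, 192 and 209.7 CPM against 80.1, 111 and 73.9 CPM (1.09 ± 0.21, SE). All 6 sums of each gene were split by label.

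The other 6 of this group were sparse. Zfp119a had 475 counts in 20 LEC cells and 4 in 3 Unlabeled cells, and Rgs13 had 539 counts in 24 LEC cells and 6 in 2 Unlabeled cells. Upk3a, Acp5, 5031425F14Rik and Gm17311 had 292, 242, 221 and 188 counts in 11, 15, 13 and 8 LEC cells and none in Unlabeled cells. That is 39.9, 33.1, 30.2 and 25.7-fold higher with the Unlabeled floor at 3 counts over the group, which is no lower bound for the choice of cells. With so few cells, the sums show how often a cell with a count was picked, not a level common to LEC cells. Annotated exons of Gfra1, Rgs12, Nnat, Cacnb4, Acp5, BC028528 and Gm15688, among others, overlap a gene on the opposite strand, and whether the counting used strand is not stated.

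To see which of these values were shared by the other claustral class, LEC and Unlabeled core-like cells of the same mice (45 and 67 cells) were fitted with the shell-like cells over 12 sums. Of 12374 genes, edgeR called 1 in core-like cells (0.00808%), 1 for the difference between the classes, and 0 in shell-like cells in this fit. An unadjusted p under 0.05 was reached by 829, 625 and 534 genes, and DESeq2 called 42 in core-like cells and 17 for the difference. The core markers named above were near equal in core-like cells of both labels. Gnb4, Nr4a2, Rgs12, Lxn and Gfra1 had core-like log2 fold changes of 0.07 (95% interval -0.31 to 0.45), 0.04 (-0.55 to 0.63), -0.06 (-0.59 to 0.46), 0.20 (-0.72 to 1.11) and 0.02 (-0.94 to 0.97). The shell-like minus core-like difference was -1.67 ± 0.35 (SE; adjusted p = 0.516) for Rgs12 and -0.94 ± 0.25 (SE; adjusted p = 0.711) for Gnb4. Neither passed, so the gap is not shown to belong to shell-like cells alone.

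Mgp and Odz2 had core-like values of 0.52 (95% interval -0.29 to 1.33) and 0.34 (-0.06 to 0.73), with differences of -2.71 ± 0.55 and -1.28 ± 0.26 (SE; adjusted p = 0.46 each). For Cacnb4 the core-like value was 0.04 (-0.31 to 0.38) and the difference -0.84 ± 0.23 (SE; adjusted p = 0.711). Atg3 and Srm, by contrast, were higher with the LEC label in core-like cells too, by 0.83 (95% interval 0.31 to 1.35) and 0.79 (0.10 to 1.47), and their differences between classes were 0.26 ± 0.34 and 0.34 ± 0.45 (SE). Hapln4 was lower with the label in both classes, at -0.96 (-2.04 to 0.12) in core-like cells.

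**Figure D4:**
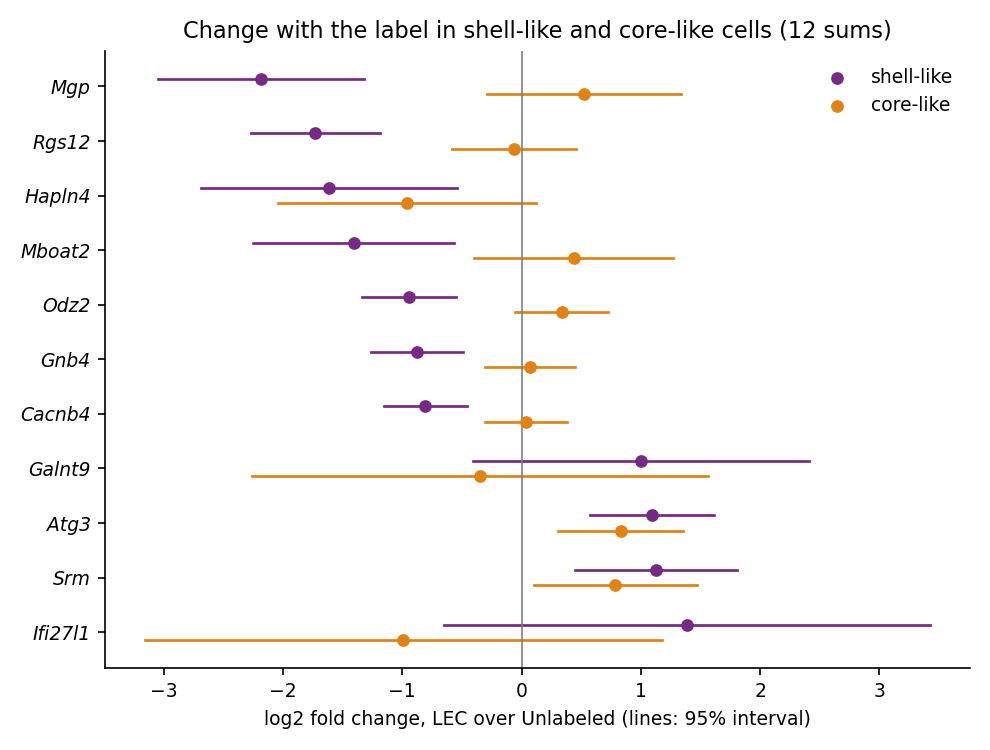
Log2 fold change of LEC over Unlabeled (horizontal axis; points, with 95% intervals as lines) for 11 genes in shell-like (purple) and core-like (orange) cells, fitted together over 12 sums. Mgp, Rgs12, Mboat2, Odz2, Gnb4 and Cacnb4 lie below 0 in shell-like cells and near or above 0 in core-like cells, while Atg3 and Srm lie above 0 in both.

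Other shell-like cells gave the following levels, here in CPM without TMM scaling and with no test. The 22 RSC-labelled shell-like cells (9, 7 and 6 per mouse) had 315, 554 and 274 CPM of Gnb4 and 267, 416 and 211 CPM of Rgs12. Both ranges lay above all TMM-scaled LEC sums and overlapped the TMM-scaled Unlabeled ones. The Nnat of these RSC-labelled cells was 256, 307 and 338 CPM and their Spon1 94.0, 78.9 and 31.5 CPM, below both groups. Of their 9 cells in mouse 1, 1 held 37085 CPM of oligodendrocyte transcripts and was kept in these sums. The 79 shell-like cells of the fourth mouse, on plates of their own at a median of 27253 counts, had 146 CPM of Gnb4, 141 CPM of Rgs12, 382 CPM of Nnat and 157 CPM of Spon1. Within LEC cells of mouse 3, plates 7 and 12 gave 56.8 and 93.0 CPM of Rgs12, 124 and 137.5 CPM of Gnb4, and 1762 and 1307.5 CPM of Nnat. Sums of 1 mouse and label thus differed between plates for Rgs12 and Nnat. Each plate held different cells, so the plate and the choice of cells cannot be told apart here.

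The study's own lists of genes enriched in its clusters were counted in the same way. Of 259 tested genes of its Cluster 1 (core) list, 186 had a log2 fold change below 0, with a median of -0.17, and 44 (16.99%) had LEC sums all below the Unlabeled sums, against 5.46% of all genes. Of 159 tested genes of its Cluster 2 (shell) list, 101 lay above 0, with a median of 0.15, and 27 (16.98%) had LEC sums all above, against 6.14%. Its Cluster 3 (deep cortical) list had a median of -0.04 over 233 genes. The study made these lists from these cells, LEC cells included, so they are not independent of the labels, and edgeR called 0 of their members while 36 Cluster 1 genes below 0 and 35 Cluster 2 genes above 0 reached an unadjusted p under 0.05 (2.54% and 3.07% of all genes).

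Both lists had members on the other side. Gnai1, an inhibitory G protein alpha subunit on the Cluster 1 list, measured 235, 296 and 219.8 CPM in LEC sums and 172, 159 and 137 CPM in Unlabeled sums, and Ntm on the Cluster 2 list was lower in LEC cells. Sstr2, a somatostatin receptor on the Cluster 1 list, measured 51.5, 26.8 and 15.6 CPM against 84.9, 79.8 and 78.8 CPM. Wnt7b, a secreted ligand on the Cluster 2 and Cluster 3 lists, measured 241, 107 and 101 CPM against 69.0, 43.9 and 43.6 CPM. These 3, and the genes named from lists in the next paragraphs, were picked after their values were seen.

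Among function lists, those of synaptic organizers had 22 of 33 tested below 0, with a median of -0.20. LEC sums were all under the Unlabeled sums for 8 of them (24.2%, against 5.46% of all genes) and all above for 2 (6.06%, against 6.14%). Cadm2, a synaptic cell adhesion molecule, measured 224, 192 and 240.3 CPM in LEC sums and 379, 319.9 and 331 CPM in Unlabeled sums (log2 fold change -0.65 ± 0.15, SE; adjusted p = 0.682). Ptprf, a receptor phosphatase on the same list, measured 43.2, 48.9 and 41.9 CPM against 86.4, 79.6 and 88.1 CPM (-0.92 ± 0.21, SE; adjusted p = 0.682). Both had tight groups with no overlap, and Lrrtm3, Slitrk4 and Nrxn2 of the same list also kept the groups apart. Calcium, sodium and HCN channel genes were below 0 for 20 of 25 (median -0.16) and axon cytoskeleton genes for 19 of 25 (median -0.10), with 1 and 3 members lower at an unadjusted p under 0.05 (2.54% of all genes) and 0 and 1 higher (3.07%). LEC sums were all lower for 2 (8%) and 5 (20%) of them, against 5.46% of all genes, and all higher for 1 each (4%, against 6.14%). Of all genes tested, 49.9% lay below 0.

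Axon guidance genes were split, with 26 of 47 above 0 and a median of 0.09. LEC sums were all above the Unlabeled sums for 6 (12.8%, against 6.14% of all genes) and all below for 1 (2.13%, against 5.46%). Sema3c, a secreted semaphorin, measured 41.6, 52.0 and 61.2 CPM in LEC sums and 4.83, 12.9 and 24.8 CPM in Unlabeled sums (1.82 ± 0.49, SE; adjusted p = 0.682). Its receptor Nrp1 measured 26.4, 45.6 and 39.5 CPM against 19.3, 9.21 and 21.8 CPM (1.16 ± 0.41, SE; adjusted p = 0.779). LEC sums were the higher in each mouse for both genes, whereas the ephrin receptor gene Epha4 measured 101, 75.5 and 75.7 CPM against 181, 100.4 and 204 CPM. Second messenger genes, Rgs12 among them, had 20 of 38 below 0 and a median of -0.02, with LEC sums all lower for 7 (18.4%, against 5.46% of all genes) and all higher for 2 (5.26%, against 6.14%). Glutamate receptor genes (17 of 29 below 0), potassium channel genes (27 of 44), synaptic vesicle release genes (27 of 38) and cortical transcription factor genes (18 of 33) had medians between -0.10 and -0.03. LEC sums were all lower for 13.8, 4.55, 5.26 and 15.2% of these lists, against 5.46% of all genes. They were all higher for 6.90, 6.82, 2.63 and 6.06%, against 6.14%. Of the 33 transcription factor genes, 6 were lower and 2 higher at an unadjusted p under 0.05 (2.54% and 3.07% of all genes).

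**Figure D5:**
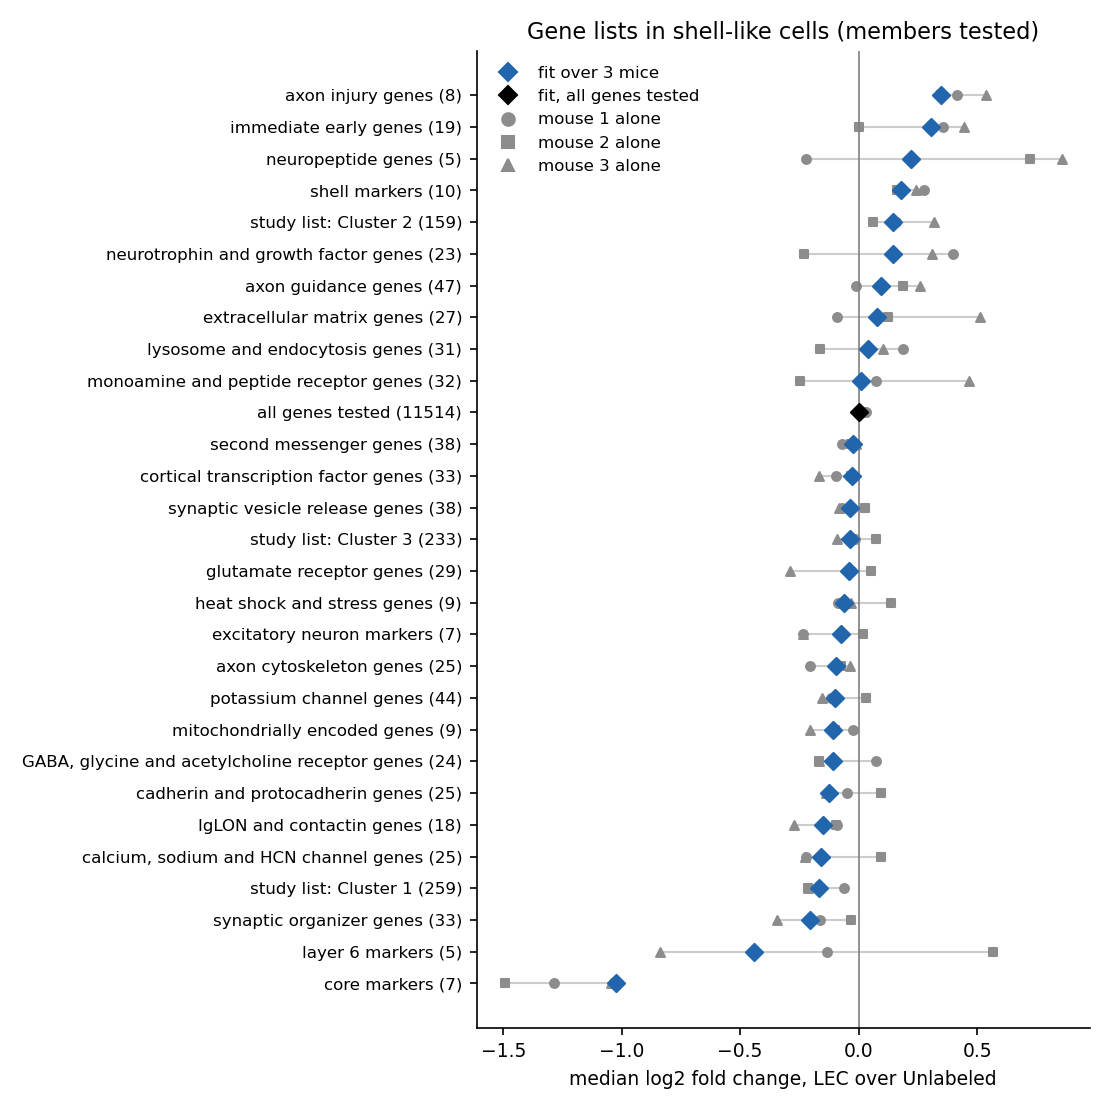
Median log2 fold change of LEC over Unlabeled (horizontal axis) in shell-like cells for each gene list with at least 5 tested members, whose number stands in parentheses. Diamonds show the fit over 3 mice (black: all genes tested) and grey symbols the median in each mouse alone; core markers sit lowest at -1.02, and the other lists lie within 0.35 of 0, except layer 6 markers at -0.44.

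Lists that could follow the tracer or the harvest gave these values. Immediate early genes lay above 0 for 15 of 19 tested (median 0.30), yet the median was 0.00 in mouse 2, and the summed level of the list overlapped between labels (1304 to 2293 CPM in LEC and 866 to 1575 CPM in Unlabeled sums). Jun, a subunit of the AP-1 factor, measured 217, 272.5 and 384 CPM in LEC sums and 153, 85.5 and 204 CPM in Unlabeled sums, and Homer1 measured 24.4, 34.5 and 48.7 CPM against 60.3, 69.2 and 67.9 CPM. Axon injury genes lay above 0 for 6 of 8 (median 0.35) and summed to 3436 to 4561 CPM in LEC and 2723 to 3407 CPM in Unlabeled sums, which did not overlap. Of the 8, 4 (Gap43, Jun, Cckbr and Npy) were higher at an unadjusted p under 0.05, which 3.07% of all genes were, and 0 were lower. Gap43, for a growth cone protein, was higher in each mouse, at 823, 618 and 752 CPM against 658, 419 and 482 CPM. Lysosome and endocytosis genes were near 0 (median 0.04, 20 of 31 above 0, 0 at an unadjusted p under 0.05). Heat shock and mitochondrially encoded genes had medians of -0.06 and -0.11.

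Markers of other cell types were as follows. The summed vascular markers reached at most 0.278 CPM, and Gfap, of astrocytes, and C1qa and P2ry12, of microglia, were at 0 in all sums. Microglial markers summed to 31.8 to 35.5 CPM in LEC and 25.5 to 46.3 CPM in Unlabeled sums, and astrocyte markers to 74.5 to 190.1 and 70.4 to 235 CPM. Of 2 astrocyte markers tested, 1 lay above 0 and 1, Slc1a2, below. Slc1a2 measured 50.7, 24.9 and 21.8 CPM in LEC sums and 147, 27.4 and 66.9 CPM in Unlabeled sums. It was lower with the label in each mouse, with overlap (-1.30 ± 0.55, SE; edgeR adjusted p = 0.86). Oligodendrocyte markers reached 2083 CPM in the Unlabeled sum of mouse 2, where 1 cell held 31366 CPM, and otherwise lay between 99.985 and 315 CPM. Without the 5 cells at 500 CPM or more of oligodendrocyte transcripts, an analysis added after the data were seen, edgeR again called 0 genes and the core marker median was -1.04. Among interneuron markers only Npy was tested, at 879, 552 and 1263 CPM in LEC sums and 491, 226 and 696 CPM in Unlabeled sums, higher with the label in each mouse (0.93 ± 0.38, SE; adjusted p = 0.829).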

How the data were processed

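The authors tagged reads to cell barcodes and UMIs, aligned them with STAR and deposited counts per gene and cell that were not normalized. The Methods give totals in reads, so counts were taken as reads, so that PCR copies are not independent molecules. The submitters' processing notes name the build NCBIM37 and Seurat. The version of STAR, the annotation and the use of strand are not given in the sources used here. Labels and animals came from the deposited cell tables. Barcodes repeated between plates (122 among the members) but never within 1.

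ERCC rows were left out of totals. Counts were summed per mouse and label and tested with edgeR 4.0.16 (TMM, filterByExpr, quasi-likelihood F test without a block, Benjamini-Hochberg over all genes, threshold 0.05). DESeq2 1.42.0, limma 3.58.1 on log2(mean CPM + 1), R 4.3.3, Python 3.11.15, numpy 2.4.6, pandas 2.3.3, scipy 1.17.1 and matplotlib 3.10.9 were also used. A SE is the absolute log2 fold change over the square root of F. Levels of the 3 sums are CPM on the TMM scale unless said otherwise. Intervals of 95% for shares are exact (Clopper-Pearson), and intervals and floors of 3 counts cover counting error only. Scripts were tested on simulated data.

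Sums of the same number come from the same mouse, so the numbers pair them, and their deviations from the group means correlated across genes with r of 0.0742, 0.0277 and 0.0578. Mice are the replicates, cells are not. Doublets were not called, since cells were picked singly by hand.

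Named genes were the tested shell, core and layer 6 markers, called genes and called list members, and, with fewer than 10 calls, the 10 genes of lowest p in each direction. The members and the lists were chosen with earlier results of these data known. Of 747 list members, 24 had no row. The study's tables of enriched genes were used for names only.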

Additional observations from a re-analysis of the deposited data

Results flagged for a closer look

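Ext1, which encodes a glycosyltransferase that builds heparan sulfate chains, was the 1 gene whose LEC against Unlabeled change differed between the classes (a test of the difference itself). In core-like cells it measured 0.672, 0.468 and 0.299 CPM in LEC sums and 18.7, 11.3 and 11.4 CPM in Unlabeled sums (log2 fold change -4.71 ± 0.49, SE; edgeR adjusted p = 0.00206). In shell-like cells it measured 65.6, 103 and 68.0 CPM against 82.7, 74.1 and 56.0 CPM (0.16). The difference, shell-like minus core-like, was 4.87 ± 0.60 (log2, SE; adjusted p = 0.0142). Ext1 was no longer called for the core-like change or for the difference when any mouse was left out, and the low core-like LEC values rest on few counts from 45 cells. Its cause was not tested.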

How the results depend on the processing

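For shell-like cells the count of 0 edgeR calls held in 18 of 20 alternatives, the exceptions being DESeq2 (35) and no filter (1, Mgp). With the mouse as a replicate block, edgeR called 0 genes, 688 reached an unadjusted p under 0.05, and the block changed no call in any of the 3 contrasts. With no filter, 1339 genes reached an unadjusted p under 0.05. DESeq2 put 20 of the 41 tested named genes past the threshold, against 35 of all 11514 genes (0.304%). All of the 20 but Gnb4 had been named for their low edgeR p on the same sums. Their number thus follows largely from how they were named and is no independent support. Core-like calls, 1 in the first fit, were 42 with DESeq2, 2 with no filter, 2 without layer 6-like cells and 0 without any 1 mouse. Calls for the difference between classes, also 1, were 17 with DESeq2, 5 with no filter and 0 to 1 without 1 mouse (1, Ifi27l1, without mouse 1, and 0 without mouse 2 or 3). The core marker median of -1.02 was -1.34 at 50 CPM or more of Slc30a3 and -1.36 to -0.94 without 1 mouse or plate (lowest without mouse 1). The shell marker median of 0.18 was 0.12 under 50 CPM of Synpr and 0.11 to 0.27 without 1 mouse or plate (0.11 without mouse 1 or plate 13, 0.12 without mouse 3, 0.27 without mouse 2). The Cluster 3 median of -0.04 turned to 0.0079 without layer 6-like cells and lay between -0.067 and 0.0036 without 1 mouse or plate, above 0 only without mouse 3. The Cluster 2 median of 0.15 was 0.06 without mouse 3.

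Several named genes kept their sign but moved by over 1.5 times. Gnb4 was -0.46 with thinned cells, and Odz2 was -0.49 and Col6a1 0.16 under 50 CPM of Synpr. Lxn was -0.73 without plate 9, Gfra1 -5.08 without mouse 3, Nnat 0.47 without mouse 3 and Nrn1 -0.26 without plate 5. Cpne9 was -2.60 without mouse 1 and -0.092 without mouse 3, Pcp4 was 0.017 without plate 8 and 0.84 without plate 13, Cdh9 was 0.13 without plate 9 and 0.81 without plate 8, Mpped1 was -0.0018 without mouse 1 and -0.31 without mouse 2, Ptprz1 was 0.28 without plate 13 and 1.51 without plate 9, and Tle4 was -0.26 without plate 13 and -1.05 without plate 7. Genes at or near 0 counts in 1 label had smaller fold changes with mean CPM per cell, where the pseudocount bounds them.

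Signs turned for 4 named genes. Without 1 mouse or plate, Syn2 ranged from -0.093 (mouse 3) to 0.33 (mouse 2), Ldb2 from -0.054 (mouse 1) to 0.26 (mouse 2) and Cplx3 from -0.98 (plate 13) to 1.38 (mouse 3). Syn2 was -0.03 without plate 13, and Ldb2 was -0.04 without mouse 3, -0.02 without plate 13 and -0.03 without plate 7. Cplx3 was 0.14 without plate 11 and 1.12 without plate 8, and Cpne4 was 0.19 with mean CPM per cell. The cause was not tested. Cplx3 and other sparse named genes fell under the count filter in some alternatives and have no value there. Leaving out plate 11, 13, 5, 9 or 8 leaves 1 label with 2 sums, whose spread is shared with the other label in the fit. The precision is limited by 3 mice a side and 18 to 29 Unlabeled cells a mouse.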
